A study of Mus musculus with 12 samples.

Results

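The genes described are Otub1 and 9 further members of the ovarian tumour (OTU) family of deubiquitinases, namely Otub2, Otud1, Otud3, Otud4, Otud5, Otud6b, Otud7b, Yod1 and Zranb1. They were taken as a list by gene name, with earlier results of these data known, and are 10 of the 23420 genes in the count tables. All 10 passed the filter on low counts, as did 12759 genes in all. RNA sequencing was performed on 12 mouse libraries, in 4 groups of 3. The stimulated KO group held OT-I cells from OTUB1-CD4Cre-OT-I mice after 24 h with plate-bound anti-CD3 at 1 µg/ml plus anti-CD28 at 1 µg/ml, antibodies that stand in for antigen and costimulation. The stimulated WT group held cells of wild type-OT-I mice after the same culture. The fresh KO and fresh WT groups held the uncultured cells of the same genotypes, so that culture and stimulation form 1 factor. All mice were on the C57BL/6 background, aged 6 to 8 weeks, and all 4 groups carried OT-I, a transgenic T cell receptor for an ovalbumin peptide. The Cre recombinase was driven by CD4 regulatory sequence, which is active in developing T cells and not in other cells of the spleen such as B cells. The genotype tag reads OTUB1-DKO, and its D is not explained. The labels do not say whether libraries came from separate mice, and p-values measure the spread between these libraries. Stimulated KO, fresh KO and fresh WT each mixed 1 library that carried Y-linked transcripts with 2 that had them at under 1 CPM (counts per 1000000 gene counts), and so drew on more than 1 mouse. For stimulated WT a technical spread is possible.

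Deubiquitinases remove ubiquitin from proteins and so oppose the E1, E2 and E3 enzymes that attach it. OTU proteins are cysteine proteases, and many of them prefer certain types of ubiquitin chain. OTUB1 has a second activity: it binds ubiquitin-loaded E2 enzymes such as UBC13, encoded by Ube2n, and blocks the transfer of ubiquitin without cutting it. In T cells, chains of ubiquitin are part of the signalling that runs from the antigen receptor to NF-kappaB, and several OTU proteins, A20 among them, are known to restrain such signals.

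The 250 bases before the transcription start are shown for the deleted gene and for 3 members that stand for the high, the falling and the lowest-level genes among the 10. They come from RefSeq, build GRCm38.p6, and 8 of the 10 members matched its table; Otud6b and Otud7b are named only. Otub1 lies at chr19:7206285-7206534 on the minus strand, Otud4 at chr8:79639426-79639675, Otud1 at chr2:19657481-19657730 and Otub2 at chr12:103388432-103388681, these last on the plus strand. Each reads 5′ to 3′ on the strand of the gene. Capitals mark matches, on either strand, to any of 7 motifs: a kappaB form of GGG and CC with any 5 bases between them, the GC box GGGCGG, the CCAAT box CCAAT, the E-box CACGTG, the ETS core CCGGAA, the AP-1 form TGANTCA and the TATA box TATAAA. A capital run longer than its motif holds matches that overlap, as kappaB and GC box matches do.
Otub1: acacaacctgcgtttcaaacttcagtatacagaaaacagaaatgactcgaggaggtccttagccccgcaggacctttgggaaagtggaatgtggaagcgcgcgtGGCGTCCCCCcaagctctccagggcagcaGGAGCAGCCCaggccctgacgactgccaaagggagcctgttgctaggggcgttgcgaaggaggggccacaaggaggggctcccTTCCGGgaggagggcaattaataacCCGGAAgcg
Otud4: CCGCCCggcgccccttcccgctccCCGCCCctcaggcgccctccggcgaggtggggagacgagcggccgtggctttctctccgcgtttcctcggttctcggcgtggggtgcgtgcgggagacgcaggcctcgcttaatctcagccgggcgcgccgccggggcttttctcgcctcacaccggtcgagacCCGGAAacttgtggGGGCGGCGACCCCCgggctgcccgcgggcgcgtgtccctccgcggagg
Otud1: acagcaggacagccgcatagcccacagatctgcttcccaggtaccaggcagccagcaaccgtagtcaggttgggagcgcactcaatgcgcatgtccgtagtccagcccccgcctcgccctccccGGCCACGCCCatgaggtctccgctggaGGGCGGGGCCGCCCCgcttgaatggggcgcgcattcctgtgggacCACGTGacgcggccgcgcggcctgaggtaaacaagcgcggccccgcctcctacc
Otub2: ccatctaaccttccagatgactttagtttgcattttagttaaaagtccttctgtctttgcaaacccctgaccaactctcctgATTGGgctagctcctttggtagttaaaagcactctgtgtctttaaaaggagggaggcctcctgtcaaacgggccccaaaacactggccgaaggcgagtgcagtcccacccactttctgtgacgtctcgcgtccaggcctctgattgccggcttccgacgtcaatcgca
The Otub1 window held 2 kappaB and 2 ETS matches, the Otud4 window 1 kappaB, 3 GC box and 1 ETS match, the Otud1 window 4 kappaB, 2 GC box and 1 E-box match, and the Otub2 window 1 CCAAT box. Among the 8 members with a sequence, 4 held a kappaB match, against 45.8% of 32851 mouse promoter windows of the same length. The GC box was in 5 of 8, against 32.7%, the CCAAT box in 4, against 33.8%, and the E-box in 2, against 6.02%. The ETS core was in 2, against 12.0%, AP-1 in 1, against 6.75%, and the TATA box in 0, against 12.4%. A match is a string of letters in this window and not a measured binding site.

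The libraries held 15064488 to 25920035 gene counts each, with 14482 to 15384 genes at 1 count or more. A cell type tag names splenic dendritic cells, whereas the design text names naive CD8 T cells. The 5 CD8 T cell markers measured (Cd8a, Cd8b1, Cd3e, Cd3g and Lck) summed to 1330 to 1509 CPM in stimulated KO, 1636 to 1763 in stimulated WT, 4586 to 4800 in fresh KO and 4461 to 4669 in fresh WT. The 10 dendritic cell markers were all detected and summed to 59.9 to 67.5 CPM in stimulated KO, 43.8 to 48.7 in stimulated WT, 466 to 701 in fresh KO and 574 to 723 in fresh WT. Batf3 of that list ran against the sum, at 27.0 to 39.9, 14.8 to 19.9, 2.13 to 3.21 and 2.25 to 3.00 CPM in the same order of groups. Zbtb46 was at 6.70 to 8.91, 4.09 to 5.21, 2.53 to 4.70 and 3.34 to 4.26 CPM. The other markers of the list were lower in stimulated than in fresh cells. B cell markers summed to 19.1 to 25.1, 22.6 to 27.3, 107 to 161 and 106 to 124 CPM in the same order of groups. The cells therefore carried the T cell markers at higher summed levels than those of dendritic or B cells in every group, and are called CD8 T cells below. In bulk RNA, fewer cells of a type and less RNA per cell cannot be told apart. Y-linked reads were present in 3 libraries, stimulated KO replicate 3, fresh KO replicate 2 and fresh WT replicate 3, and absent or under 1 CPM in the others.

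Otub1, which encodes the targeted enzyme (chr19:7198202-7206316, minus strand), was lower in every KO library than in any WT library of the same state. In stimulated cells it was at 16.2, 13.8 and 14.5 CPM in the KO libraries, against 85.7, 100.1 and 96.1 CPM in WT. In fresh cells it was at 25.4, 28.8 and 28.6 CPM in the KO libraries, against 72.6, 70.8 and 45.1 CPM in WT. The groups did not overlap in either state, and fresh WT replicate 3 stood below the other 2 fresh WT libraries. Per library, the stimulated KO cells kept 14.6% to 17.3% of the stimulated WT mean, and the fresh KO cells 40.4% to 45.8% of the fresh WT mean. The log2 fold change, KO over WT, was -2.66 ± 0.14 (SE) in stimulated cells (edgeR quasi-likelihood test, adjusted p = 1.35e-07) and -1.19 ± 0.14 in fresh cells (edgeR adjusted p = 0.000559), with 3 libraries per group. Without fresh WT replicate 3 the fresh value was -1.37 (edgeR adjusted p = 2.29e-06).

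The difference between these 2 genotype effects was itself past the threshold, with an interaction of -1.47 ± 0.20 on the log2 scale (edgeR adjusted p = 0.00329). Otub1 went in opposite directions with stimulation in the 2 genotypes. In WT it rose, averaging 94.0 ± 7.48 CPM in stimulated cells and 62.8 ± 15.4 CPM in fresh cells (SD, n = 3 each), a log2 change of 0.58 ± 0.13 (edgeR adjusted p = 0.000772). Leaving out single libraries gave WT changes of 0.39 to 0.69, with an edgeR adjusted p of at most 0.00444. In KO it fell, averaging 14.8 ± 1.26 CPM in stimulated cells and 27.6 ± 1.91 CPM in fresh cells, a log2 change of -0.89 ± 0.15 (edgeR adjusted p = 3.65e-05). The summed dendritic cell markers also moved between these KO groups, at 59.9 to 67.5 CPM in stimulated and 466 to 701 CPM in fresh cells. Batf3 and Zbtb46 of that list went the other way, and its other markers fell. The summed CD8 T cell markers fell too, at 1330 to 1509 CPM in stimulated and 4586 to 4800 CPM in fresh KO. The part of other cell types in the remaining Otub1 reads was not tested. The values are sums over the whole gene, and the exons on which the remaining reads fell were not analysed here.

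None of the genes next to Otub1 on chromosome 19 was called lower in KO. Of the 10 nearest protein-coding genes, 9 were in the tables under these names and all 9 passed the filter. In fresh cells 0 of the 9 were called between KO and WT by edgeR, DESeq2 or limma-voom, whereas 1.20% of all genes were called in either direction by edgeR. The smallest edgeR adjusted p was 0.275. At an unadjusted p under 0.05 there were 2, given without the share of all genes at that threshold. In stimulated cells 2 of the 9 were higher in KO and none lower, against 5.08% of all genes called higher and 9.30% in either direction. These were Stip1, which encodes a co-chaperone of HSP70 and HSP90, at 0.23 ± 0.07 on the log2 scale (edgeR adjusted p = 0.0426), and Rcor2, a transcriptional corepressor, at 0.67 ± 0.20 (edgeR adjusted p = 0.0448). Leaving out single libraries brought the adjusted p of Stip1 to between 0.0793 and 0.127, and that of Rcor2 to as high as 0.205, without stimulated WT replicate 3, and limma-voom did not call Rcor2. Macrod1, whose annotated end lies just beside that of Otub1, was at -0.09 ± 0.10 in stimulated and -0.03 ± 0.11 in fresh cells, and Cox8a, the nearest gene on the other side, at 0.07 ± 0.08 and -0.02 ± 0.08.

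**Figure D1:**
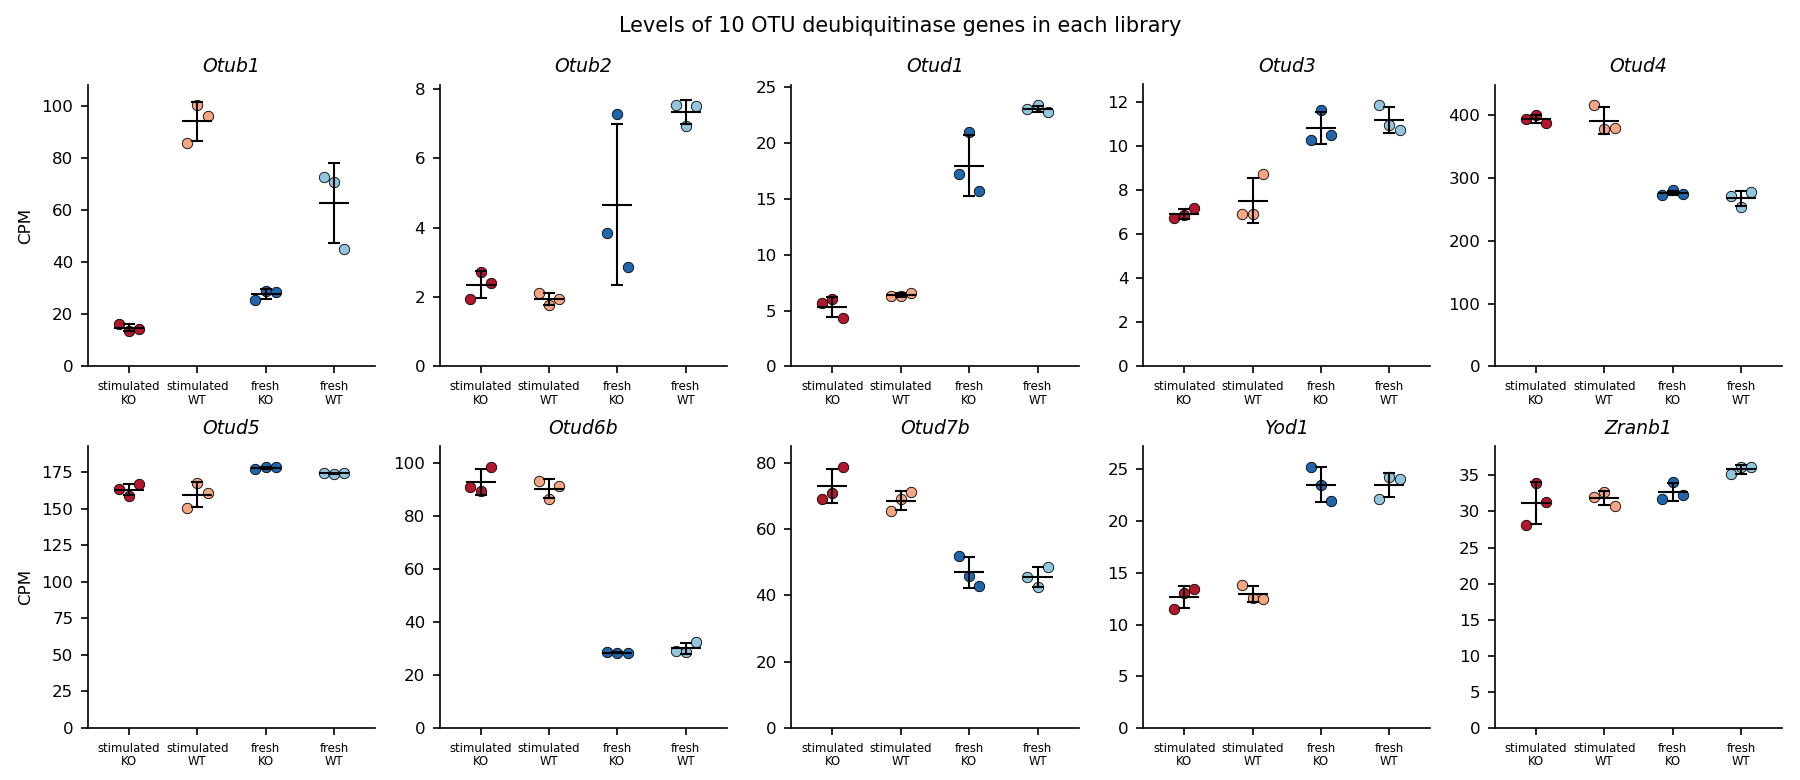
Level of each of the 10 OTU genes in CPM (vertical axis, from 0, scaled per gene) by group (horizontal axis). Points are single libraries, lines the mean and bars the SD (n = 3). Otub1 shows 4 separate groups, the lowest stimulated KO at 13.8 to 16.2 CPM and the highest stimulated WT at 85.7 to 100.1 CPM, and most other genes separate by stimulation and overlap between KO and WT.

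To compare genes with one another, levels were scaled by length to RPKM, which is the CPM divided by the annotated exon length in kilobases. In stimulated KO cells the order by mean RPKM was Otud4 (48.7 ± 0.722), Otud5 (31.4 ± 0.759), Otud6b (27.5 ± 1.44), Otud7b (7.96 ± 0.556), Otub1 (5.82 ± 0.496), Zranb1 (5.69 ± 0.531), Otud3 (4.15 ± 0.141), Yod1 (2.06 ± 0.172), Otud1 (1.88 ± 0.310) and Otub2 (0.637 ± 0.107; SD, n = 3). Otub1 overlapped Zranb1 and Yod1 overlapped Otud1, and the other neighbours in that order did not overlap. In stimulated WT cells Otub1 was second at 36.9 ± 2.94 RPKM, below Otud4 at 48.3 ± 2.65 and above Otud5 at 30.7 ± 1.66. Otud6b at 26.7, Otud7b at 7.48, Zranb1 at 5.82 and Otud3 at 4.51 RPKM followed, then Otud1 at 2.25 and Yod1 at 2.11, which overlapped, and Otub2 at 0.527.

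In fresh KO cells Otud5 at 34.3 ± 0.121 and Otud4 at 34.1 ± 0.468 RPKM led and overlapped, followed by Otub1 at 10.8 ± 0.750 and Otud6b at 8.38 ± 0.055. Otud3 at 6.48, Otud1 at 6.34 and Zranb1 at 5.98 RPKM overlapped their neighbours, and Otud7b at 5.11, Yod1 at 3.84 and Otub2 at 1.26 closed the order. In fresh WT cells Otud5 at 33.5 ± 0.088 and Otud4 at 33.0 ± 1.48 RPKM again overlapped, with Otub1 next at 24.7 ± 6.05. Otud6b was at 8.86, Otud1 at 8.14, Otud3 at 6.70 and Zranb1 at 6.55, the last pair overlapping, and Otud7b at 4.97, Yod1 at 3.83 and Otub2 at 1.98 RPKM came last. With the longest transcript in place of all annotated exons as length, Otub1 moved above Otud4 in stimulated WT and was level with it in fresh WT, and Zranb1 passed Otud3 in both fresh groups and Otud1 in fresh KO. Those orders rest on the choice of length. Otub1 made up 4.29% ± 0.389 of the summed RPKM of the 10 genes in stimulated KO and 22.3% ± 1.60 in stimulated WT, and 9.30% ± 0.578 in fresh KO and 18.6% ± 4.05 in fresh WT. The sums themselves were 135.7 ± 1.83 RPKM in stimulated KO and 165.3 ± 1.41 in stimulated WT, and 116.6 ± 2.99 in fresh KO and 132.3 ± 4.53 in fresh WT.

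**Figure D2:**
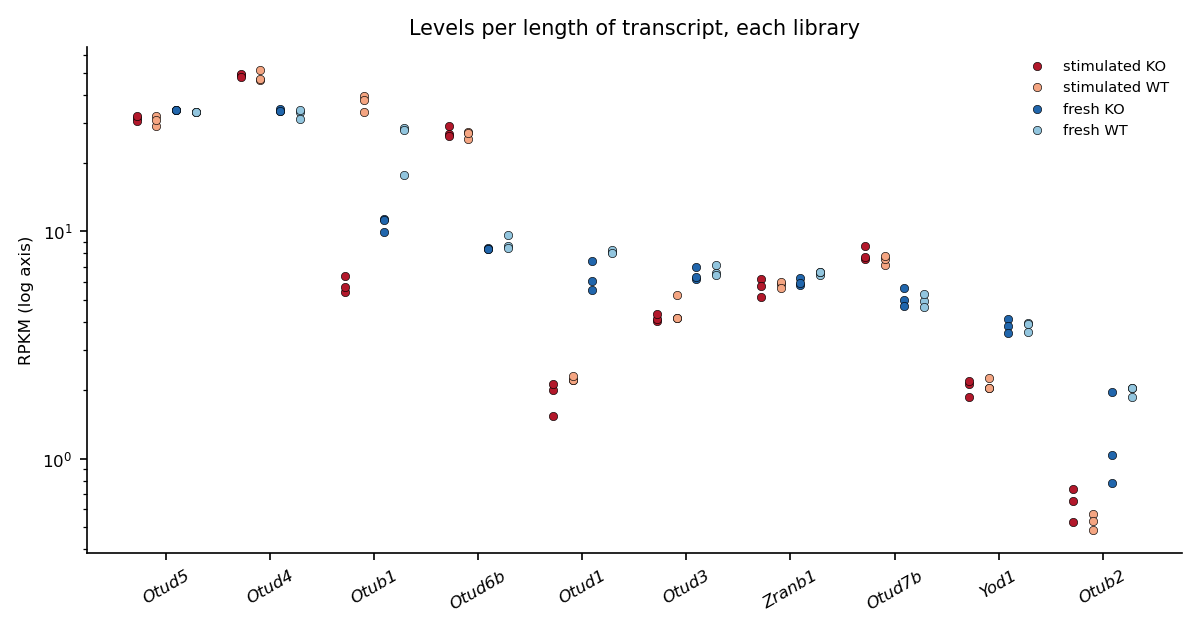
RPKM of the 10 OTU genes (vertical log axis), ordered along the horizontal axis by their mean in fresh WT cells. Each point is 1 library, and colours mark the 4 groups; Otud4 and Otud5 lie between 29.0 and 51.3 RPKM in all 12 libraries, whereas Otub2 stays at or under 2.04 RPKM.

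Among the other 9 members, none passed the test between KO and WT in either state by edgeR, DESeq2 or limma-voom. In fresh cells Otub1 was the single member called, so 1 of 10 was lower and 0 higher, against 0.219% of all tested genes called lower and 1.20% called in either direction by edgeR at an adjusted p under 0.05. At an unadjusted p under 0.05 there were 2 of the other 9, given without the share of all genes at that threshold. In stimulated cells it was again 1 lower and 0 higher of 10, against 4.22% of all genes called lower and 9.30% in either direction, with 0 of the other 9 at an unadjusted p under 0.05. The median log2 change of these 9 was 0.01 in stimulated and -0.05 in fresh cells, against -0.00476 and -0.000178 over all tested genes. KO and WT libraries did not overlap for 2 of the 10 members in stimulated cells, against 27.4% of all genes, and for 4 of 10 in fresh cells, against 20.0%. The stimulated ones were Otub1 and Otud1, lower in KO. The fresh ones were Otub1, Otud1 and Zranb1, lower in KO, and Otud5, higher in KO. Otub1 is the deleted gene, so its place in these counts says nothing about the other members.

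Otub2, on chromosome 12 (chr12:103388682-103406350), encodes the closest relative of OTUB1. It was at 3.84, 7.29 and 2.88 CPM in fresh KO, against 7.53, 6.93 and 7.52 CPM in fresh WT, from 37 to 161 counts per library over all 12. Fresh KO replicates 1 and 3 lay below the WT libraries, and fresh KO replicate 2 lay among them. The log2 change was -0.64 with a 95% interval of -1.16 to -0.12, and did not pass the threshold (edgeR adjusted p = 0.239). Without fresh KO replicate 2 it was -1.12 (edgeR adjusted p = 0.00778), and without fresh KO replicate 3 it was -0.38 (edgeR adjusted p = 0.513). Fresh KO replicate 2 was the single fresh KO library with Y-linked reads. It also had the lowest summed dendritic cell markers of the fresh libraries, 466 CPM against 542 to 723 in the others. The part of either in the Otub2 level was not tested. In stimulated cells Otub2 was at 1.94, 2.72 and 2.41 CPM in KO, against 2.10, 1.78 and 1.95 CPM in WT, with a log2 change of 0.26, an interval of -0.36 to 0.89 and an edgeR adjusted p of 0.643. The groups overlapped. Its interaction was 0.90, with an interval of 0.09 to 1.71 (edgeR adjusted p = 0.250), and 1.39 without fresh KO replicate 2 (edgeR adjusted p = 0.0133).

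Otud1, a single-exon gene on chromosome 2 whose enzyme is known to act on innate signalling proteins, was at 17.2, 21.0 and 15.7 CPM in fresh KO, against 23.0, 23.3 and 22.8 CPM in fresh WT. Each KO library lay below each WT library, and the KO libraries spread more widely. The log2 change was -0.36 with an interval of -0.60 to -0.12, which did not pass the threshold (edgeR adjusted p = 0.160). It was -0.49 without the 3 libraries with Y-linked reads (edgeR adjusted p = 0.0482). Leaving out single libraries gave -0.48 to -0.26 and no call. The edgeR adjusted p there ran from 0.0533 to 0.412, the highest without fresh KO replicate 3. In stimulated cells it was at 5.65, 6.02 and 4.35 CPM in KO, against 6.26, 6.26 and 6.57 CPM in WT, a log2 change of -0.26 with an interval of -0.55 to 0.03 (edgeR adjusted p = 0.265).

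For the remaining 7 members the estimates lay close to 0 and none was called, though changes within the intervals that follow are not excluded. In stimulated cells the log2 changes ran between -0.12 and 0.09, and all 7 intervals lay between -0.36 and 0.25, or 0.779 to 1.19 as a fold (edgeR adjusted p of 0.516 to 0.907). In fresh cells they ran between -0.13 and 0.05, with all 7 intervals between -0.28 and 0.21, or 0.824 to 1.16 as a fold (edgeR adjusted p of 0.435 to 0.994). Otud5 encodes DUBA, which cuts ubiquitin chains from TRAF3, and it varied least of the 10 within the fresh groups, at 177.5, 178.7 and 178.4 CPM in fresh KO, against 174.6, 173.8 and 174.4 CPM in fresh WT. These groups did not overlap, yet the log2 change was 0.03 with an interval of -0.06 to 0.12. Otud7b encodes Cezanne, a TRAF3 and ZAP70 deubiquitinase. It was at 69.2, 71.1 and 78.8 CPM in stimulated KO, against 65.6, 69.1 and 71.2 CPM in stimulated WT, which overlapped, with a log2 change of 0.09 and an interval of -0.07 to 0.25.

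**Figure D3:**
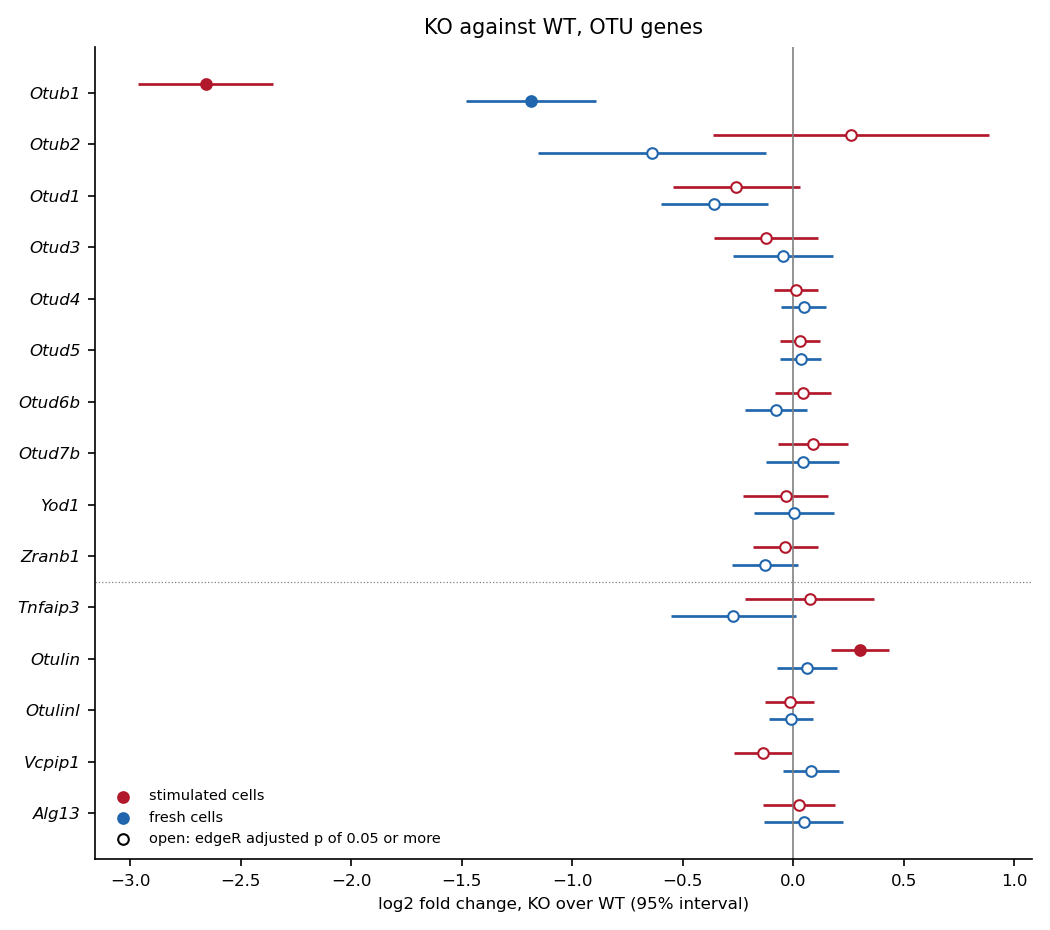
Log2 fold change, KO over WT (horizontal axis), for the 10 OTU genes above the dotted line and 5 further OTU genes below it, in stimulated (red) and fresh (blue) cells. Bars are 95% intervals from edgeR, and filled points passed an adjusted p of 0.05; these are Otub1 in both states, at -2.66 and -1.19, and Otulin in stimulated cells, at 0.30.

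Of 7 further OTU genes on a comparison list, 5 passed the filter. In fresh cells 0 of the 5 were called between KO and WT by edgeR, DESeq2 or limma-voom, with 0 at an unadjusted p under 0.05 by edgeR. The share of all genes called there by edgeR was 1.20%, so that a count of 0 among 5 is near the background. The share at an unadjusted p under 0.05 is not given. In stimulated cells 1 was higher and 0 lower, against 5.08% of all genes called higher, 4.22% called lower and 9.30% in either direction. That gene was Otulin, listed under its older name Fam105b, whose enzyme removes linear ubiquitin chains. It was at 78.8, 91.0 and 85.6 CPM in stimulated KO, against 67.4, 68.5 and 71.2 CPM in stimulated WT, with no overlap. The log2 change was 0.30 ± 0.06 (edgeR adjusted p = 0.00682). In fresh cells it was at 47.1, 48.4 and 51.9 CPM in KO, against 48.9, 45.3 and 47.1 CPM in WT, which overlapped, and the difference between the genotype effects, 0.24 with an interval of 0.05 to 0.43, did not pass the threshold (edgeR adjusted p = 0.180).

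Tnfaip3 encodes A20, the OTU enzyme best known for restraining NF-kappaB. It was at 863, 1266 and 746 CPM in fresh KO, against 1204, 1060 and 1206 CPM in fresh WT. The highest of all 6 was fresh KO replicate 2, the same library that stood among WT for Otub2. The log2 change was -0.27 with an interval of -0.55 to 0.01 (edgeR adjusted p = 0.377), -0.52 without that library (edgeR adjusted p = 0.00324) and -0.11 without fresh KO replicate 3 (edgeR adjusted p = 0.760). Its interaction was 0.34 (edgeR adjusted p = 0.390), 0.60 without fresh KO replicate 2 (edgeR adjusted p = 0.00841) and 0.19 without fresh KO replicate 3 (edgeR adjusted p = 0.633). Vcpip1, which encodes a deubiquitinase that works with the ATPase VCP, was at 77.3, 82.5 and 73.5 CPM in stimulated KO, against 85.9, 84.0 and 86.8 CPM in stimulated WT. Its groups did not overlap, and the log2 change of -0.14 did not pass the threshold (edgeR adjusted p = 0.182). Its interaction was -0.22 (edgeR adjusted p = 0.210), and -0.30 without fresh WT replicate 1 (edgeR adjusted p = 0.0361). Otulinl, listed as Fam105a and known in human cells as an OTU-fold protein without protease activity, and Alg13, a glycosylation gene with an OTU domain in human, had log2 changes between -0.02 and 0.05 in the 2 states. Otud6a (0 to 7 counts) and Otud7a (0 to 3 counts) were too low to test.

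Genes for E2 enzymes and reported substrates of OTUB1 formed a list of 24, of which 23 were tested. In fresh cells 1 was higher and 0 lower in KO, against 0.980% of all genes called higher and 1.20% in either direction. This was Smad3, which encodes a signal transducer of TGF-beta receptors, at 101.4, 117.3 and 97.5 CPM in fresh KO, against 80.8, 82.2 and 83.2 CPM in fresh WT. Its log2 change was 0.36 ± 0.08 (edgeR adjusted p = 0.0426), and leaving out any 1 of 5 of the 6 fresh libraries ended the call, with an adjusted p of up to 0.150, reached without fresh WT replicate 2. In stimulated cells 2 of 23 were higher and 0 lower, against 5.08% of all genes called higher and 9.30% in either direction. Foxm1, which encodes a transcription factor of the cell division programme, was at 68.7, 57.3 and 68.3 CPM in KO, against 58.4, 52.0 and 47.5 CPM in WT, and the groups overlapped (log2 change 0.30 ± 0.09, edgeR adjusted p = 0.0413). Ube2e3, which encodes an E2 enzyme that OTUB1 can bind, was at 35.6, 36.0 and 32.8 CPM in KO, against 31.2, 29.9 and 27.8 CPM in WT (log2 change 0.23 ± 0.07, edgeR adjusted p = 0.0478). Of 13 alternatives, the Foxm1 call held in 7 and the Ube2e3 call in 5. The highest edgeR adjusted p, 0.201 and 0.228, came without stimulated WT replicate 3, and DESeq2 was among those that did not call Ube2e3.

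Ube2n, which encodes UBC13, the E2 most studied with OTUB1, had a log2 change of 0.06 with an interval of -0.05 to 0.16 in stimulated cells and 0.03 with an interval of -0.08 to 0.14 in fresh cells. The median log2 change of the list was 0.04 in stimulated and 0.02 in fresh cells. Of the 15 listed partners of the other members, all tested, 0 were called in either state by edgeR, with 3 at an unadjusted p under 0.05 in stimulated and 2 in fresh cells. The shares of all genes called were 9.30% and 1.20%, so that a count of 0 among 15 is near the background. The share at an unadjusted p under 0.05 is not given. The smallest p was that of Vcp, the ATPase that YOD1 binds, at 0.13 ± 0.04 in stimulated cells (edgeR adjusted p = 0.0628). DESeq2 and limma-voom each called 1 of the 15, Vcp, in stimulated cells (adjusted p = 0.00421 and 0.0305) and 0 in fresh cells.

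Stimulation moved nearly all members, as it did most genes. In WT cells 4 of 10 rose and 6 fell, against 40.8% of all tested genes called higher, 41.4% called lower and 82.3% in either direction. In KO cells 3 rose and 6 fell, against 41.7% called higher, 42.2% called lower and 83.9% in either direction. These shares are near the background, so the number of members called is not particular to them, and the sizes and directions are given instead. CPM are relative to the counts of each library, so each rise or fall is relative to the other genes. Transcripts per cell were not measured.

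Otud6b, which encodes a protein reported to bind translation initiation complexes in human cells, had the widest rise of the 10. It was at 91.0, 89.4 and 98.5 CPM in stimulated KO, against 28.6, 28.2 and 28.4 CPM in fresh KO, and at 93.2, 86.3 and 91.4 CPM in stimulated WT, against 29.1, 28.5 and 32.5 CPM in fresh WT. Every stimulated library was above every fresh one. The log2 change was 1.71 ± 0.06 in KO and 1.59 ± 0.06 in WT (edgeR adjusted p = 5.66e-13 and 1.77e-12). Otud4, the highest member by length-scaled level in stimulated cells with all annotated exons as length and linked to MYD88 signalling, was at 394, 400 and 388 CPM in stimulated KO, against 273, 280 and 275 CPM in fresh KO. In WT it was at 416, 377 and 380 CPM in stimulated, against 271, 254 and 277 CPM in fresh cells. These groups did not overlap, and the log2 changes were 0.51 ± 0.05 in KO and 0.55 ± 0.05 in WT (edgeR adjusted p = 5.05e-08 and 2.53e-08). Otud7b rose by 0.64 ± 0.08 in KO and 0.59 ± 0.08 in WT on the log2 scale.

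Otud1 and Otub2 had the widest falls among the members. Otud1 averaged 5.34 ± 0.878 CPM in stimulated KO and 18.0 ± 2.74 CPM in fresh KO, and 6.36 ± 0.176 CPM in stimulated WT and 23.0 ± 0.289 CPM in fresh WT (SD, n = 3 each). Its log2 changes were -1.75 ± 0.13 in KO and -1.85 ± 0.12 in WT (edgeR adjusted p = 2.04e-09 and 9.33e-10). Otub2 fell by 1.01 ± 0.27 on the log2 scale in KO and by 1.91 ± 0.27 in WT (edgeR adjusted p = 0.00244 and 7.1e-06), with no overlap between stimulated and fresh libraries in either genotype. The KO value was -0.52 without fresh KO replicate 2 (edgeR adjusted p = 0.0197). The dendritic, B cell and myeloid marker sums were also lower in every stimulated library than in any fresh one, and so was that of CD8 T cells. The CD8 T cell sum was at 1330 to 1509 CPM in stimulated KO, against 4586 to 4800 in fresh KO. In WT it was at 1636 to 1763 CPM in stimulated, against 4461 to 4669 in fresh cells. Batf3 of the dendritic list was higher in stimulated cells, as was Zbtb46 in KO, at 6.70 to 8.91 against 2.53 to 4.70 CPM. The part of other cell types in the falls of Otud1 and Otub2 was not tested.

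Yod1, which encodes a deubiquitinase of the VCP pathway that clears proteins from the endoplasmic reticulum, was at 11.5, 13.1 and 13.4 CPM in stimulated KO, against 25.2, 23.4 and 21.9 CPM in fresh KO. In WT it was at 13.8, 12.5 and 12.5 CPM in stimulated, against 22.2, 24.2 and 24.0 CPM in fresh cells. It fell in both, by 0.90 ± 0.09 in KO and 0.86 ± 0.09 in WT on the log2 scale. Yod1 lies wholly inside Pfkfb2, which runs on the opposite strand, and 154 exonic bases overlap; whether counting used strand is not given in the sources used here, so reads of both genes could be mixed there. Otud3, a deubiquitinase of the same family, averaged 6.92 ± 0.234 CPM in stimulated KO and 10.8 ± 0.724 CPM in fresh KO, and 7.53 ± 1.04 CPM in stimulated WT and 11.2 ± 0.594 CPM in fresh WT. Its log2 changes were -0.64 ± 0.11 in KO and -0.56 ± 0.11 in WT (edgeR adjusted p = 4.66e-05 and 0.000185).

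Otud5 and Zranb1 moved least. Otud5 had log2 changes of -0.13 ± 0.04 in KO and -0.12 ± 0.04 in WT (edgeR adjusted p = 0.0121 and 0.0143), and its call was lost in KO without stimulated KO replicate 2 (edgeR adjusted p = 0.0525) and in WT without stimulated WT replicate 1 (0.0938), and in both with no filter on low counts (0.0504 in KO and 0.0781 in WT). Zranb1 encodes TRABID, an enzyme linked to Wnt signalling. It was at 28.1, 33.9 and 31.4 CPM in stimulated KO, against 31.8, 34.1 and 32.3 CPM in fresh KO, which overlapped, and the log2 change of -0.08 did not pass the threshold (edgeR adjusted p = 0.315). In WT it was at 32.1, 32.8 and 30.8 CPM in stimulated, against 35.2, 36.2 and 36.2 CPM in fresh cells, with a log2 change of -0.17 ± 0.07 (edgeR adjusted p = 0.0345). Leaving out any 1 of 5 of the 6 WT libraries ended that call, with an adjusted p of up to 0.129, reached without stimulated WT replicate 3. Zranb1 shares 56 exonic bases with a transcript on the opposite strand.

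**Figure D4:**
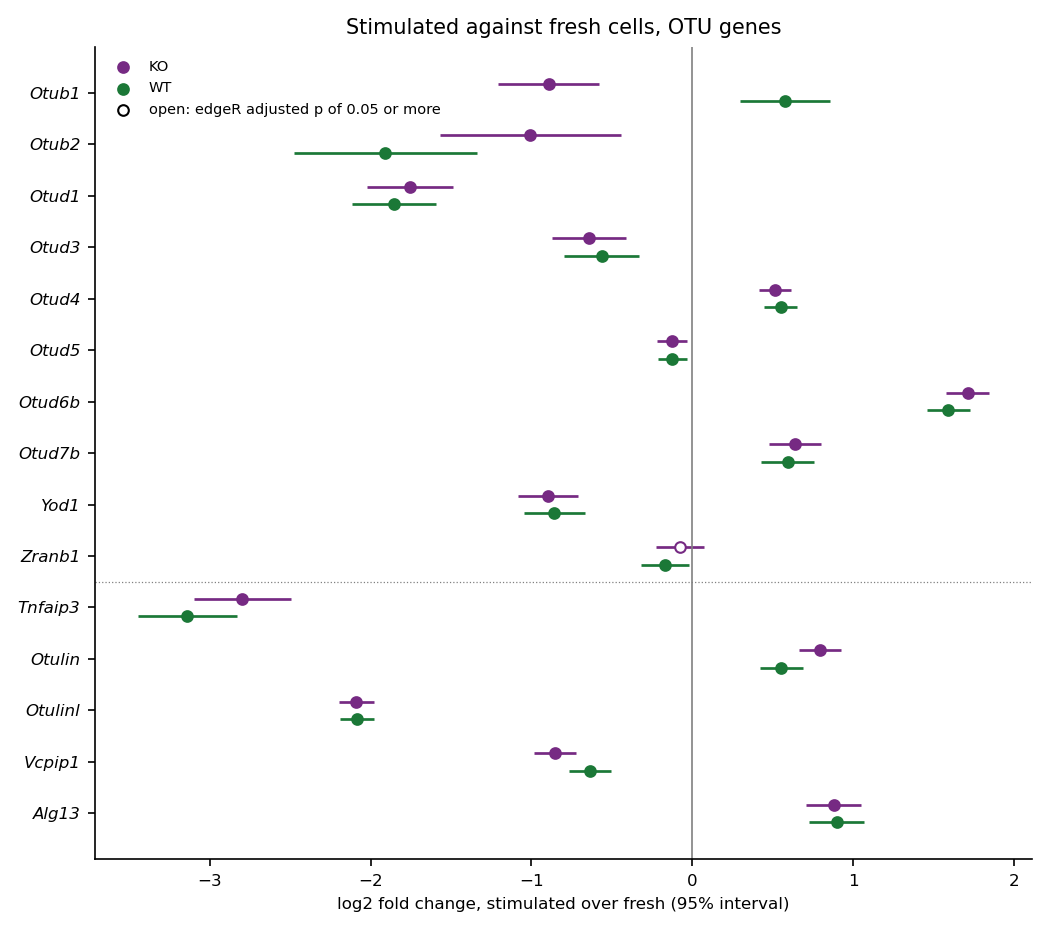
Log2 fold change, stimulated over fresh (horizontal axis), for the 10 OTU genes above the dotted line and 5 further OTU genes below it, in KO (purple) and WT (green) cells. Bars are 95% intervals and open points did not pass an edgeR adjusted p of 0.05; Otub1 is the gene whose 2 points lie on opposite sides of 0, at -0.89 in KO and 0.58 in WT.

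All 5 of the further OTU genes changed with stimulation in both genotypes, where 83.9% of all genes were called in KO and 82.3% in WT. Tnfaip3 was at 133, 142 and 138 CPM in stimulated KO, against 863, 1266 and 746 CPM in fresh KO, and at 130, 126 and 138 CPM in stimulated WT, against 1204, 1060 and 1206 CPM in fresh WT. Its log2 changes were -2.80 ± 0.14 in KO and -3.14 ± 0.14 in WT (edgeR adjusted p = 2.84e-11 and 9.8e-12), wider than those of any of the 10 members. Otulinl fell by 2.09 and 2.08, and Vcpip1 by 0.85 and 0.64, on the log2 scale in KO and WT. The count of Vcpip1 may include an antisense gene that shares 735 of its exonic bases. Otulin rose by 0.79 and 0.55, and Alg13 by 0.88 and 0.90. Among OTUB1 partners, 15 of 23 rose and 6 fell in KO, against 41.7% of all genes called higher and 42.2% called lower. In WT 14 rose and 7 fell, against 40.8% and 41.4%. The list had a median log2 change of 0.26 in KO and 0.36 in WT, against -0.02 and -0.03 over all tested genes. Ube2n rose by 1.15 ± 0.05 in KO and 1.13 ± 0.05 in WT. Among the partners of the other members, 4 of 15 rose and 10 fell in KO, and 5 rose and 10 fell in WT.

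Otub1 alone among the 10 passed the test for a different response to stimulation in KO and WT. It was 1 of 10 called lower and 0 higher in the interaction test, against 1.56% of all genes called lower, 0.698% called higher and 2.26% in either direction. For the other 9, none of which DESeq2 or limma-voom called, the edgeR adjusted p lay between 0.250 and 0.995, with Otub2 as the single gene at an unadjusted p under 0.05. The share of all genes at that unadjusted threshold is not given. The stimulation contrasts of the 2 genotypes use separate libraries, and the KO and WT values set side by side above are given as each contrast's own.

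Across the 12 libraries, the gene most like Otub1 by Pearson's r of log2(CPM + 1) was Calcrl, which encodes the calcitonin receptor-like receptor, at r = 0.952 among the 9903 tested genes whose average log2 CPM reached 2. It averaged 29.2 CPM in stimulated KO and 35.3 in stimulated WT, and 30.9 CPM in fresh KO and 34.5 in fresh WT. Dennd2d (r = 0.868), Ppcs (0.866), Pknox1 (0.862) and Yy2 (0.861) followed. The most opposed were Rad9a (r = -0.940), Ier3 (-0.918) and Sept8 (-0.905). Ier3 averaged 13.1 CPM in stimulated KO and 3.47 in stimulated WT, and 6.53 CPM in fresh KO and 3.29 in fresh WT. These values describe how levels ran together over 12 libraries that share 4 groups. The genes named are the extremes of the 9903 compared, and none of the other 9 members was among them.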

How the data were processed

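RNA was extracted with Trizol and sequenced from standard Illumina libraries, per the labels' protocols. The authors deposited whole-number read counts per gene for each of the 12 libraries, with no normalization. The submitters' processing notes list HTSeq, TopHat, TopHat2 and DESeq2, with mm10 as the build. Versions, settings, gene annotation and strandedness were not given in the sources used here. Lines that name no gene held 5.22% to 6.43% of counts, most of them reads without a unique position or gene, and were left out. Reads shared by near-identical or overlapping genes are thus undercounted.

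Counts were tested with edgeR 4.0.16 (R 4.3.3) by its quasi-likelihood test, with 1 coefficient per group, filterByExpr and TMM factors (0.988 to 1.01), over 12759 genes and all 12 libraries (8 residual degrees of freedom), two-sided, with Benjamini-Hochberg adjustment over all genes tested. A gene was called at an adjusted p under 0.05. Counts at an unadjusted p under 0.05 are given without the share of all genes at that threshold. They are description only and are not read as a property of a list. CPM were computed with TMM library sizes. The SE is the log2 fold change divided by the root of F, and 95% intervals use the t distribution of the fit; both cover the spread between libraries. RPKM used the union of annotated exons in GENCODE M21 (GRCm38), which also gave gene coordinates and neighbours. DESeq2 1.42.0, limma-voom (limma 3.58.1), upper quartile factors, 2 other filters, fits of single contrasts and fits without some libraries were alternatives. The tests were tested on simulated data. No pair of libraries in a group agreed within sampling noise. Replicates were numbered within groups only to name them, and pair no samples.

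The members and lists were chosen with earlier results of these data known. Genes were named by a rule: all 10 members, the measured genes of the further OTU list, genes of the partner and neighbour lists called between KO and WT (at most 6 per list and contrast, smallest p first), and the 5 genes most and 3 least like Otub1. Ube2n, Vcp, Macrod1 and Cox8a fall outside it and were named after their values were seen.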

Additional observations from a re-analysis of the deposited data

Results flagged for a closer look

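The effect of genotype on Otub1 differed between the stimulated and the fresh state by a test of the difference itself. The log2 fold change, KO over WT, was -2.66 in stimulated and -1.19 in fresh cells, and the interaction was -1.47 ± 0.20 (edgeR adjusted p = 0.00329). Otub1 was lower in KO in 3 of 3 libraries in both states.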

How the results depend on the processing

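Otub1 kept its direction and its call under each alternative run. Leaving out single libraries gave log2 changes of -2.73 to -2.61 in stimulated and -1.37 to -1.07 in fresh cells, KO over WT, and an interaction of -1.59 to -1.28. Upper quartile factors moved the median of all genes in the stimulation contrasts to -0.14 in KO and -0.15 in WT, against -0.02 and -0.03, and there Zranb1 was called in KO (-0.20, edgeR adjusted p = 0.0160). No paired analysis was possible because the labels give no shared replicate numbers. A fit of 2 groups gives no interaction.

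The number of members called in fresh KO against WT was 1; it was 3 without the libraries with Y-linked reads (Otub1, Otub2 and Otud1) and 1 to 2 when single libraries were left out, and 1 to 2 in the interaction, each 2 without fresh KO replicate 2 (Otub1 and Otub2). All genes called in fresh KO against WT were 153, against 311 with DESeq2, 245 without a filter, 90 without the Y-linked libraries and 29 to 192 without single libraries (29 without fresh WT replicate 2). In stimulated KO against WT they were 1187, against 514 to 1307 without single libraries (514 without stimulated WT replicate 3). In the interaction they were 288, against 511 with DESeq2, 443 without a filter, 122 without the Y-linked libraries and 131 to 349 without single libraries. The cause was not tested.

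Signs turned for values near 0, and not for a called value. For Yod1, fresh KO against fresh WT, the value was 0.0025 and became -0.00424 with upper quartile factors, -0.00221 with limma-voom and -0.000662 with 2 groups. Without the Y-linked libraries Otulinl was 0.029 in stimulated KO against WT and 0.050 in the interaction, and Otud7b was -0.075 in the interaction. The cause was not tested. Without single libraries, the ranges in fresh KO against WT were -0.0090 to 0.13 for Alg13, -0.011 to 0.11 for Foxm1, -0.099 to 0.0017 for Otud3, -0.028 to 0.11 for Otud7b, -0.026 to 0.010 for Otulinl and -0.043 to 0.057 for Yod1. In stimulated KO against WT they were -0.18 to 0.00015 for Otud3, -0.012 to 0.058 for Otud4, -0.010 to 0.067 for Otud5, -0.0018 to 0.072 for Otud6b, -0.054 to 0.024 for Otulinl, -0.066 to 0.086 for Smad3, -0.083 to 0.035 for Yod1 and -0.098 to 0.035 for Zranb1. Zranb1 in stimulated against fresh KO ran between -0.13 and 0.00019. In the interaction they were -0.096 to 0.039 for Alg13, -0.13 to 0.047 for Otud3, -0.063 to 0.011 for Otud4, -0.042 to 0.034 for Otud5, -0.015 to 0.12 for Otud7b, -0.041 to 0.037 for Otulinl and -0.089 to 0.033 for Yod1.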
